A study of Homo sapiens with 6 samples.

Results

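Processed pseudogenes are copies of spliced messenger RNAs that were reverse transcribed and inserted back into the genome. Of the 10191 genes annotated as processed pseudogenes in the deposited table, 3661 were above 0 in at least 1 sample. The 550 described here were chosen by their measured FPKM (fragments per kilobase of gene length, scaled by 1 factor per sample): at least 1 FPKM in at least 3 of the 6 samples. Their levels are therefore a description. A parent gene was assigned by name: 302 symbols ended in P and a number, and removing that ending left the symbol of a protein-coding gene for 300 of them, with 215 distinct parents. The other 250 pseudogenes had clone-based or other names.

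The samples were AZ-521 cells, wild type per the labels, a line sold as gastric cancer that cell banks trace to a duodenal tumour. Cells received 10 µM platycodon D (PD, a saponin of the balloon flower) or its solvent DMSO for 48 h, with 3 samples per group, to study how the compound acts on these cells. Polyadenylated RNA was sequenced with a stranded kit. Whether the replicates came from separate cultures is not stated in the labels, so the p-values rest on a spread that may be technical. The gut epithelial markers KRT18, KRT19 and KRT20 and the stomach markers TFF1, TFF2 and GKN1 were listed at 0 in every sample. Of the other gut epithelial markers, KRT8 lay between 0.291 and 0.428 FPKM, and EPCAM, CDH1 and VIL1 reached at most 0.2585 FPKM. Of the other stomach markers, ATP4A averaged 0.310 FPKM in DMSO and 0.930 FPKM in PD. MUC6 lay between 0.166 and 0.417 FPKM, and MUC5AC and PGC reached at most 0.08583 FPKM. CDX2, an intestinal factor, lay between 0.979 and 1.59 FPKM. The other intestinal markers CDX1, MUC2, FABP1 and CDH17 were at 0.0475 FPKM or less. Of the mesenchymal markers, VIM and COL3A1 averaged 102 and 42.9 FPKM in DMSO and 78.0 and 40.6 FPKM in PD, and COL1A1 0.598 and 0.659 FPKM. Reads over genes, recovered from the FPKM steps, numbered 14915538 to 16341687 per sample. DMSO replicate 1 and PD replicate 3 stood apart from the other samples on the second principal component; the first separated the groups.

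A processed pseudogene lacks introns and usually lacks a promoter of its own, and many lie within or beside other genes. Copies arise mostly from messages that are abundant in the germ line, such as those of ribosomal proteins, translation factors and glycolytic enzymes. Since a young copy is nearly identical to its parent, a short read from either can be placed on both. The sources used here do not say how such reads were counted.

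Stretches of pseudogenes with the matching coding sequence of the parent show how far such reads can be told apart. They come from GENCODE transcripts on build GRCh38, 5′ to 3′ in the sense of the transcript, 120 bases each, and capitals mark the bases at which a pair differs. Copies with no difference are shown first, then 1 with few and some with many. In the pairs without a difference the same letters stand for pseudogene and parent. RPS28P7, a copy of the small-subunit ribosomal protein gene RPS28, lies at chr11:82689559-82689678 on the plus strand, and the parent stretch spans 3 exons between chr19:8321531-8321985. AC022149.1 lies at chr19:14622123-14622242 on the minus strand and matches 1 exon of the integrin beta 1 gene ITGB1 at chr10:32911474-32911593.
RPS28P7 and RPS28: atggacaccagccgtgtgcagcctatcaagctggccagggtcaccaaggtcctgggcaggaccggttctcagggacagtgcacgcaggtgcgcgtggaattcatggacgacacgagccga
AC022149.1 and ITGB1: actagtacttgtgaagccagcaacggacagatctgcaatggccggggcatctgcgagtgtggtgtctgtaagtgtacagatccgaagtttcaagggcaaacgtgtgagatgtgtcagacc

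A copy with few differences carried 3 over 120 bases, so that the letters tell its reads from those of the parent at few positions. AC132942.1, at chr17:3665220-3665339, is a copy of the large-subunit ribosomal protein gene RPL21 on chromosome 13, and it showed the largest rise of all described below.
AC132942.1: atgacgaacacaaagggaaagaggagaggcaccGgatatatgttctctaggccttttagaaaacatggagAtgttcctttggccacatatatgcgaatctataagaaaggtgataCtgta
RPL21: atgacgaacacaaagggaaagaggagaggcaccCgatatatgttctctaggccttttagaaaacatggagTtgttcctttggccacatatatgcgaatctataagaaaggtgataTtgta

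The copies with many differences carried 13 to 22 over 120 bases, and they are shown because their changes departed from those of their parents. ISCA1P4 lies at chr15:40948750-40948869 on the minus strand and copies an iron-sulfur cluster assembly gene. KLF2P1 lies at chr2:130036958-130037077 and copies a Krüppel-like transcription factor. AC069282.1 lies at chr7:47956820-47956939 and copies the mitotic checkpoint kinase TTK.
ISCA1P4: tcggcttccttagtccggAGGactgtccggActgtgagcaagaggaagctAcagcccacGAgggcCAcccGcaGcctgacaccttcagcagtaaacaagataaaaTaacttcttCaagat
ISCA1: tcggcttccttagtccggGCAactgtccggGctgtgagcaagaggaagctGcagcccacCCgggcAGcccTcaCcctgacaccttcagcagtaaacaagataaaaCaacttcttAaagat
KLF2P1: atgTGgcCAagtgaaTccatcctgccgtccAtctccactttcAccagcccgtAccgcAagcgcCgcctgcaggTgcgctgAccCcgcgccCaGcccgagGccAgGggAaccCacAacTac
KLF2: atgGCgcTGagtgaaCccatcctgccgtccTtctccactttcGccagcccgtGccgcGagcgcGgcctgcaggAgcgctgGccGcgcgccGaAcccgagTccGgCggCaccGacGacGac
AC069282.1: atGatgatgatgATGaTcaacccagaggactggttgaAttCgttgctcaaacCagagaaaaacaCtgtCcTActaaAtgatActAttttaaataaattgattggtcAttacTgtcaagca
TTK: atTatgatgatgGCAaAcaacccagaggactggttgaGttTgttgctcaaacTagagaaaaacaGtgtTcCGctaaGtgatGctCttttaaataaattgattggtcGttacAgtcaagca

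Over whole lengths, 299 of the 300 name-matched pseudogenes aligned with a transcript of the parent, at a median identity of 97.1%. The best protein-coding hit was the named parent for 296. The exceptions were EIF5AP4, RPL39P36 and TUBB8P1, which matched another gene better, and KLF2P4, which did not align with KLF2. Of the 250 pseudogenes without a parent by name, 188 matched a protein-coding gene at 80% identity or more over 80% or more of their length. Of all 550, 334 shared no exact 150-base window with a transcript of another gene (shorter pseudogenes were taken whole), 216 shared at least 1, and in 21 every window was shared. Open frames, from a start to a stop codon, were set against the longest coding sequence among the parent's transcripts. At least 90% of that length remained in 64 of the 300, and in 180 the longest frame was under 50% of it. The longest coding sequence need not be the one copied. For ISCA1 it has 390 bases, while the one aligned above has 261. A copy of a shorter form can thus fall under 90% with its frame whole.

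Most of these pseudogenes rested on few reads. Their lengths ran from 75 to 6821 bases, with a median of 524.5, so that 1 FPKM at the median length corresponded to 7.86 to 9.26 reads per sample. The median pseudogene had 21.8 reads per sample against 428 for all genes tested. A mean under 10 reads was found for 118, between 10 and 30 for 212, and above 1000 for 4. All 550 held 0.257% to 0.284% of the reads over genes in each sample, and the ranges of the groups overlapped. Both groups exceeded the minimum of 1 FPKM in every sample for 318. There were 18 that reached it in PD samples only and 7 in DMSO samples only, and these had to differ between the groups: 14 of the 18 are among the rises counted below and 4 of the 7 among the falls. Wherever such a pseudogene is named, its change is a description of that choice. Just inside the minimum, the third-highest value was 1.00 FPKM for AC017007.2 and for AL031577.1. Just outside it was 0.996 FPKM for AC006504.3 and 0.994 FPKM for ACTG1P3, a copy of gamma actin.

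The highest pseudogenes were copies of genes for ribosomal proteins, translation factors, chromatin proteins and cell-surface proteins. RPS28P7 had 240, 316 and 385 FPKM in DMSO replicates 1 to 3 and 368, 275 and 319 FPKM in PD replicates 1 to 3. RPS28 itself had 12.1, 15.7 and 17.8 FPKM in DMSO and 17.0, 14.1 and 21.1 FPKM in PD. The copy thus exceeded its parent in every sample, and the groups overlapped for both. FPKM divides by the merged length of all exons, which is 210 bases for RPS28P7 and 2119 for RPS28. In reads, not per length, RPS28P7 averaged 1069 and RPS28 averaged 551.

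AC116533.1, identical over its length to the ribosomal protein gene RPL36A, had 72.8, 106 and 129 FPKM in DMSO and 126, 113 and 101 FPKM in PD, while RPL36A lay between 2.32 and 2.92 FPKM. RPL39P3, identical to RPL39, had 33.8, 153 and 132 FPKM in DMSO and 124, 95.1 and 103 FPKM in PD. DMSO replicate 1 lay far below the other 5 samples for this copy of 156 bases, and the groups overlapped. H3F3AP4, identical to the histone H3.3 gene H3F3A, ran from 64.3 to 85.4 FPKM and H3F3A from 55.4 to 69.1 FPKM. HMGB1P6, a copy of the chromatin protein gene HMGB1, had 89.0, 90.1 and 88.9 FPKM in DMSO and 73.9, 72.1 and 84.4 FPKM in PD. HMGB1 had 37.8, 32.6 and 34.9 FPKM in DMSO and 24.6, 23.1 and 29.3 FPKM in PD, so every PD sample lay below every DMSO sample for both. The copy did not pass the test described below (adjusted p = 0.114); HMGB1 did (adjusted p = 0.0262), but not without DMSO replicate 1, 2 or 3 (0.0558, 0.0515 and 0.0757) or PD replicate 1 or 2 (0.0811 and 0.0981).

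ANXA2P2 copies annexin A2, a calcium-dependent membrane-binding protein, and had 72.3, 77.6 and 89.0 FPKM in DMSO and 93.6, 83.9 and 107 FPKM in PD, with overlapping groups. RPS7P1, a copy of RPS7, ran from 61.7 to 81.7 FPKM. AC008038.1 is 99.2% identical to EEF1G, a subunit of the elongation factor 1 complex. It ran from 58.7 to 88.2 FPKM, while EEF1G was listed at 0 in every sample. A similar case was EIF4A1P10, a copy of the initiation helicase EIF4A1, with a mean of 5.60 FPKM in DMSO and 8.84 FPKM in PD against 0.991 and 2.09 FPKM for the parent. How reads that match several genes were counted is not stated, so the values listed for EEF1G and EIF4A1 need not mean low expression. Of the 300 pairs, 36 had a higher mean FPKM in the copy than in the parent, 19 of them in all 6 samples. This count is per length, not in reads. Unlike RPS28P7, some copies with the higher FPKM had fewer reads than the parent. HMGB1P6 averaged 859 reads and HMGB1 3764, and RPL39P3 averaged 270 and RPL39 1410. The median copy stood at 8.57% of its parent's FPKM in DMSO and 8.48% in PD.

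**Figure D1:**
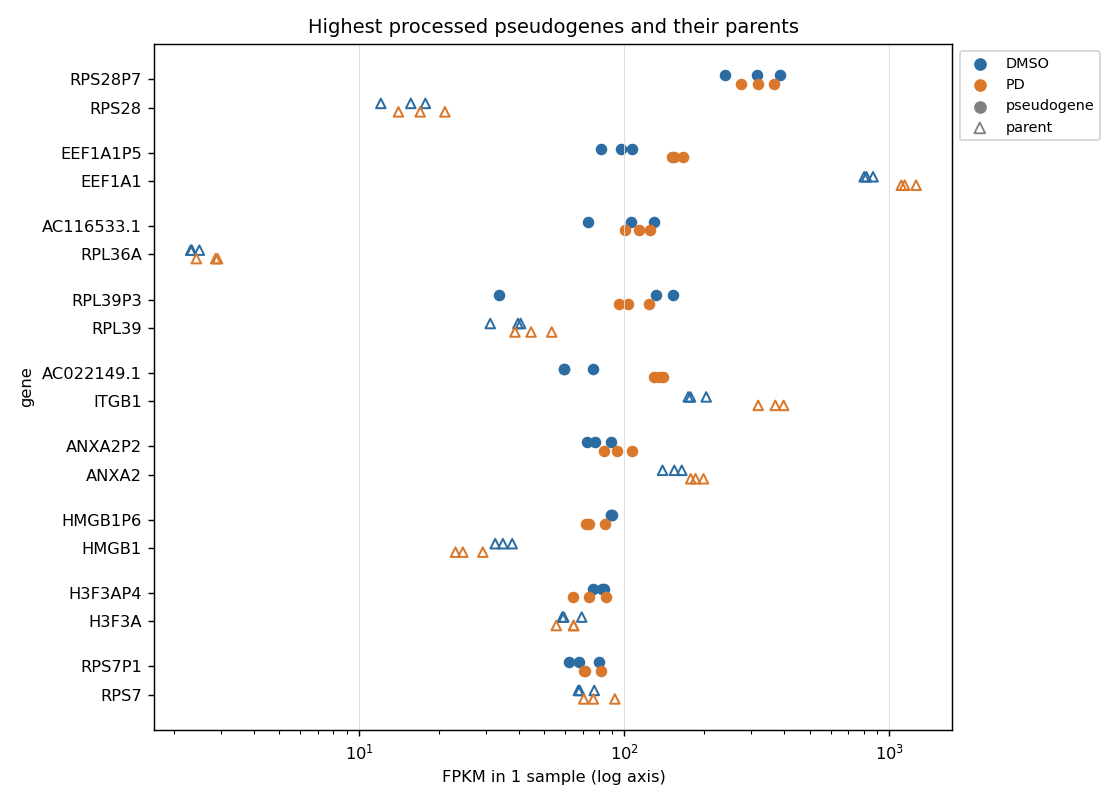
FPKM of 9 of the 10 highest processed pseudogenes (filled circles) and of their parents (open triangles) in each DMSO (blue) and PD (orange) sample, on a log axis; AC008038.1 is left out because its parent is listed at 0. RPS28P7, AC116533.1, RPL39P3 and HMGB1P6 lie to the right of their parents in all samples, and EEF1A1P5 and AC022149.1 are higher in PD, as are their parents.

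With PD, 55 of the 550 pseudogenes rose and 37 fell (adjusted p below 0.05; limma on log2(FPKM + 1), Benjamini-Hochberg over all 13579 genes tested). These are 10.0% and 6.73% of them, beside 14.3% and 12.7% of all genes tested. Of the 55 and 37, 19 and 4 changed by at least 2-fold in FPKM + 1, beside 2.84% (higher) and 0.979% (lower) of all genes tested. The added 1 shrinks the change of a gene at a few FPKM, so a 2-fold change of its FPKM need not be counted here. Of the 19, 9 reached the minimum in PD samples only, and 16 had under 30 reads. With at least 30 reads the counts were 3 and 3, and among the 318 above the minimum in every sample 4 and 3, so nothing is read from the 19 against 4. The median change was 0.04 on the log2 scale, against 0.00 over all genes. Among genes with under 30 reads, 12.3% of all tested genes rose and 5.53% fell, and of the 330 pseudogenes in that range 10.6% and 5.76%. With 30 to 100 reads the shares were 15% and 12.5% of all genes and 6.47% and 7.19% of 139 pseudogenes. Whether these shares differ was not tested. In RNA from whole cultures, a change in the number of expressing cells and a change per cell cannot be told apart.

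The count that fell depended on single samples. It was 20 when DMSO replicate 3 was left out, 23 for PD replicate 1, and 24 for either DMSO replicate 2 or PD replicate 2. The count that rose was 36 without PD replicate 2. With the samples scaled to equal totals, which moved the median of all genes to -0.13, 44 rose and 57 fell. Among the 318 above the minimum in every sample, 28 rose and 23 fell.

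The largest rise was that of AC132942.1, the copy of RPL21 at 97.5% identity with no shared window. It had 3.24, 2.79 and 2.35 FPKM in DMSO and 15.8, 18.2 and 12.7 FPKM in PD, a log2 change of 2.12 ± 0.15 (SE, n = 3 per group, adjusted p = 0.000225). All PD samples lay above all DMSO samples. RPL21 changed by 0.39 (adjusted p = 0.0713). The copy lies on the opposite strand within an intron of TAX1BP3, a PDZ-domain protein gene, which rose by 1.67 (adjusted p = 0.000394) from 0.947 to 5.21 FPKM.

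AC022149.1, the 609-base copy of ITGB1, a receptor for the extracellular matrix, had 76.5, 59.0 and 59.2 FPKM in DMSO and 129, 136 and 140 FPKM in PD. Its change was 1.05 ± 0.12 (SE, adjusted p = 0.00137), next to 0.97 (adjusted p = 0.00176) for ITGB1, whose means were 185 and 364 FPKM. Every window of the copy also occurs in ITGB1, so that the letters alone do not tell their reads apart. AC069282.1, the copy of TTK at 81.9% identity, had 13.5, 9.92 and 11.5 FPKM in DMSO and 18.2, 29.6 and 23.1 FPKM in PD, a rise of 0.94 ± 0.18 (SE, adjusted p = 0.00973). TTK went the other way, from 10.4 ± 2.70 to 4.35 ± 1.13 FPKM (SD, n = 3; log2 change -1.08, adjusted p = 0.00896).

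Further rises came from copies whose parents did not pass the test. AL352979.3, at 80.4% identity to the centromere protein gene CENPW, had 3.69, 5.22 and 4.13 FPKM in DMSO and 9.75, 10.5 and 9.72 FPKM in PD. BEND3P3, a partial copy of the chromatin repressor BEND3, had 1.07, 1.11 and 1.53 FPKM in DMSO and 3.87, 3.01 and 2.65 FPKM in PD. Their groups did not overlap, and their changes were 1.05 and 0.90. AL035417.2, at 81.1% identity to MTX3, had 0.164, 0.737 and 0.569 FPKM in DMSO and 2.94, 2.13 and 2.35 FPKM in PD. It entered the set through its PD values only, so that this difference (1.23 on the log2 scale) was fixed by the choice of members. BEND3P3 shares exonic bases on the opposite strand with AL132656.4, which rose by 0.97 (adjusted p = 0.00403). AC021087.1, a copy of the phosphatase subunit gene PPP4R2, rose by 0.78 (adjusted p = 0.0112).

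RPL13AP20, a copy of RPL13A, had 8.66, 4.43 and 5.86 FPKM in DMSO and 11.7, 16.1 and 11.3 FPKM in PD. Its change of 0.96 had an adjusted p of 0.019, and of 0.0585 without DMSO replicate 3 and 0.0679 without PD replicate 2. RPL13A changed by -0.04. AC084337.1, which resembles the voltage-dependent channel gene VDAC1, rose by 1.09 (adjusted p = 0.0226), with 0.0524, 0.0677 and 0.0647 without DMSO replicate 1, DMSO replicate 3 and PD replicate 1. BRCC3P1, a copy of the deubiquitinase gene BRCC3, rose by 0.88 (adjusted p = 0.0134, and 0.0547 without PD replicate 2), and its same-strand host SIMC1 rose by 0.79 (adjusted p = 0.00106). IFITM4P, a relative of the interferon-induced IFITM3, rose by 0.87 (adjusted p = 0.0146, and 0.0523 without PD replicate 2). AC084824.1, a copy of the histone chaperone gene NAP1L1, rose by 0.82 (adjusted p = 0.0279) and missed the threshold without DMSO replicate 2, DMSO replicate 3, PD replicate 2 or PD replicate 3, at 0.0818, 0.0804, 0.0968 and 0.0613.

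The largest fall was that of ISCA1P4, the 134-base copy of ISCA1 shown above. It had 44.7, 56.0 and 39.7 FPKM in DMSO and 10.7, 7.29 and 12.4 FPKM in PD, a change of -2.12 ± 0.20 (SE, n = 3 per group, adjusted p = 0.000686), on 105 and 20.7 reads. Every DMSO sample lay above every PD sample. ISCA1 had 14.7 ± 1.26 FPKM in DMSO and 18.2 ± 1.96 FPKM in PD (SD, n = 3), a change of 0.28 that did not pass the test (adjusted p = 0.092).

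Further large falls were those of AL391840.1, RFESDP1, AP000925.1 and IPMKP1. AL391840.1, with only a 70.6% hit to SLC19A3, had 5.5, 5.75 and 6.95 FPKM in DMSO and 1.60, 0.887 and 2.36 FPKM in PD. IPMKP1, a copy of an inositol phosphate kinase gene, had 5.25, 7.54 and 4.77 FPKM in DMSO and 1.90, 3.12 and 2.57 FPKM in PD, while IPMK had 4.33 and 4.18 FPKM on average. The groups did not overlap for either copy. RFESDP1, a copy of a Rieske-domain protein gene, changed by -1.09 (adjusted p = 0.0249), and the adjusted p was 0.0597, 0.0706 and 0.0533 without DMSO replicate 1, DMSO replicate 2 and PD replicate 1. IPMKP1 and RFESDP1 lie near each other on chromosome 13, at chr13:22837026-22837880 and chr13:22850101-22850561. AP000925.1, a keratin copy in an intron of the kinase gene SIK2 on the opposite strand, changed by -0.98, and SIK2 by -0.998 (adjusted p = 0.000686).

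KHSRPP1, a copy of the splicing regulator KHSRP, fell by 0.80 on the log2 scale, RAP1BP1, a copy of the small GTPase gene RAP1B, by 0.75, and AC025884.2 by 0.77, with adjusted p of 0.00708, 0.00811 and 0.00274. RAP1BP1 had 6.59, 5.62 and 5.33 FPKM in DMSO and 3.18, 3.65 and 2.41 FPKM in PD, while RAP1B was at 8.05 and 9.04 FPKM. AC008429.2, a copy of the pyrophosphatase gene PPA1, changed by -0.81 (adjusted p = 0.0226), with 0.0651, 0.0675 and 0.0538 without DMSO replicate 3, PD replicate 1 and PD replicate 2. HMGB3P18 had 13.7, 11 and 10.8 FPKM in DMSO and 6.62, 5.74 and 7.01 FPKM in PD, and its parent HMGB3, a chromatin protein gene, fell as well (-0.78 and -0.54).

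**Figure D2:**
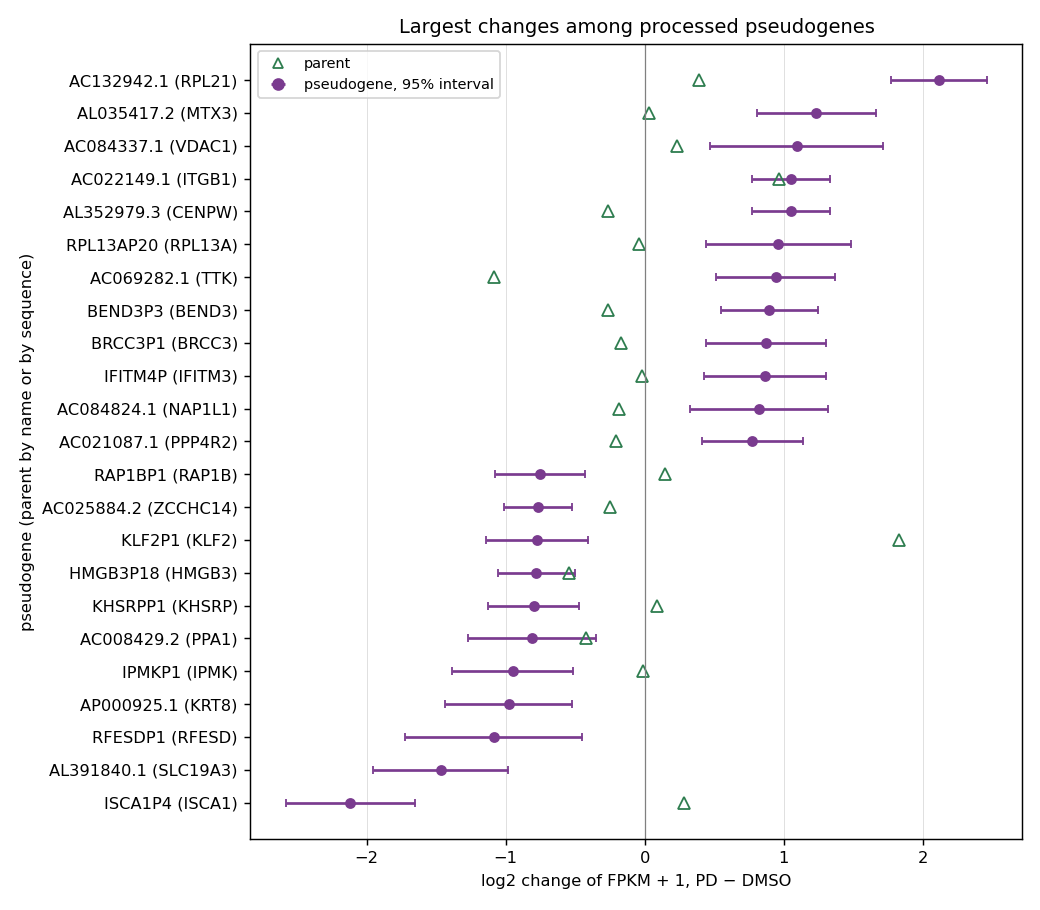
Log2 change of FPKM + 1 between PD and DMSO for the largest rises and falls named in the text, all past the test, with 95% intervals (circles), and for the parent by name or by sequence (triangles; none where the parent was not tested). AC022149.1, HMGB3P18 and AC025884.2 (42.9% of which aligned with ZCCHC14) have a parent that passed the test on the same side of 0, and KLF2P1 and AC069282.1 one that passed it on the other side.

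By the function of the parent, ribosomal protein copies were the most numerous, with 80 members from 44 parents and levels from 0.831 to 317 FPKM. Of these, 3 rose and 5 fell, and of the 44 parents 0 rose and 1 fell, beside 14.3% and 12.7% of all genes tested. The median change of the copies was 0.01. RPL21P75 rose from 11.5 to 16.7 FPKM (adjusted p = 0.0108). RPS2P46 fell from 48.2 to 34.9 FPKM (adjusted p = 0.0432) and RPLP0P6 from 46.3 to 36.5 FPKM (adjusted p = 0.0476). RPL29P3, RPL34P19 and RPL9P29 fell as well, from 2.08 to 2.29 FPKM in DMSO, and RPL13AP20 and RPL12P37 rose. RPL13AP5, among the 4 highest ribosomal copies, was at 69.7 and 73.1 FPKM (adjusted p = 0.697). The parents RPSA and RPL21 each had 5 copies, as did HNRNPA1, an RNA-binding protein gene. The 5 RPSA copies ran from 1.12 to 31.8 FPKM on average, and their changes from -0.33 to 0.01, with adjusted p of 0.654 or more in limma's test.

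Among 20 copies of translation factor genes, 6 rose and 2 fell, beside 14.3% and 12.7% of all genes tested, with a median of 0.22. EEF1A1P5, a copy of the elongation factor gene EEF1A1 at 99.7% identity, had 82.1, 97.1 and 107 FPKM in DMSO and 154, 152 and 167 FPKM in PD, a rise of 0.73 ± 0.12 (SE, adjusted p = 0.00489). EEF1A1 had 804, 820 and 868 FPKM in DMSO and 1142, 1109 and 1261 FPKM in PD. Its rise of 0.49 (adjusted p = 0.013) had an adjusted p of 0.0581 without DMSO replicate 2 and turned to -0.16 with quantile normalization. EIF4EP2, a copy of the cap-binding protein gene EIF4E, had 28.8, 29 and 34.4 FPKM in DMSO and 45.9, 45.5 and 46.4 FPKM in PD, a rise of 0.57 (adjusted p = 0.00565), beside 0.44 (adjusted p = 0.0623) for EIF4E. EIF4A1P10 rose by 0.57 and EIF4A1 by 0.63, EEF1A1P6 by 0.48, and EIF4BP6 by 0.63 beside 0.39 for EIF4B. PABPC1P3, a copy of the poly(A)-binding protein gene, differed by 0.88 while PABPC1 changed by -0.32 (adjusted p = 0.0513). EIF3EP1 fell by 0.44 on the log2 scale, and EEF1E1P1 differed by -0.43. PABPC1P3 reached the minimum in PD samples only and EEF1E1P1 in DMSO samples only, so both differences were fixed by the choice. EIF1AXP1 and EIF5AP4 did not pass the test.

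Of 5 copies of ferritin genes, 4 rose, although on few reads. Ferritin stores iron in a shell of heavy and light chains. FTH1 had 49.4, 88.4 and 99.0 FPKM in DMSO and 297, 298 and 279 FPKM in PD, a rise of 1.93 (adjusted p = 0.00189), and the light chain gene FTL rose by 1.23 (adjusted p = 0.00135). All 5 copies had a higher mean in PD. The 4 that passed the test stand beside 14.3% of all genes tested that rose. FTH1P2 had 0.316, 1.57 and 1.51 FPKM in DMSO and 5.53, 3.00 and 3.24 FPKM in PD. FTH1P8 had 1.14, 0.342 and 0.331 FPKM in DMSO and 1.77, 1.90 and 4.54 FPKM in PD. FTLP3 had 0.987, 1.11 and 1.5 FPKM in DMSO and 2.96, 2.71 and 3.29 FPKM in PD. FTH1P2 and FTLP3 lay below the minimum of 1 FPKM in DMSO replicate 1, and FTH1P8 in DMSO replicates 2 and 3. DMSO values alone could not have brought them into the set, so their rises are partly fixed by the choice of members.

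The groups did not overlap for these ferritin copies, and FTLP3 had the smallest adjusted p, 0.00376, with a change of 0.86 ± 0.13 (SE). The changes are of FPKM + 1, and the added 1 shrinks those of the low copies more than those of FTH1 and FTL. FTH1P7 changed by 0.83 (adjusted p = 0.0278), and the groups of FTH1P23 overlapped (change 0.63, adjusted p = 0.201). Mean reads were 12 to 21.3 per sample against 5866 for FTH1 and 18219 for FTL. Without PD replicate 1, FTH1P2 had an adjusted p of 0.067. FTH1P7 had 0.0767, 0.0788 and 0.0638 without DMSO replicate 2, PD replicate 1 and PD replicate 3, and FTH1P8 had 0.0824, 0.0866 and 0.0529 without DMSO replicate 2, DMSO replicate 3 and PD replicate 2. Identity of these 5 copies to the parents ran from 96.0% to 97.7%, and 2 of them shared a window with another transcript. What share of these reads came from the parents was not tested.

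**Figure D3:**
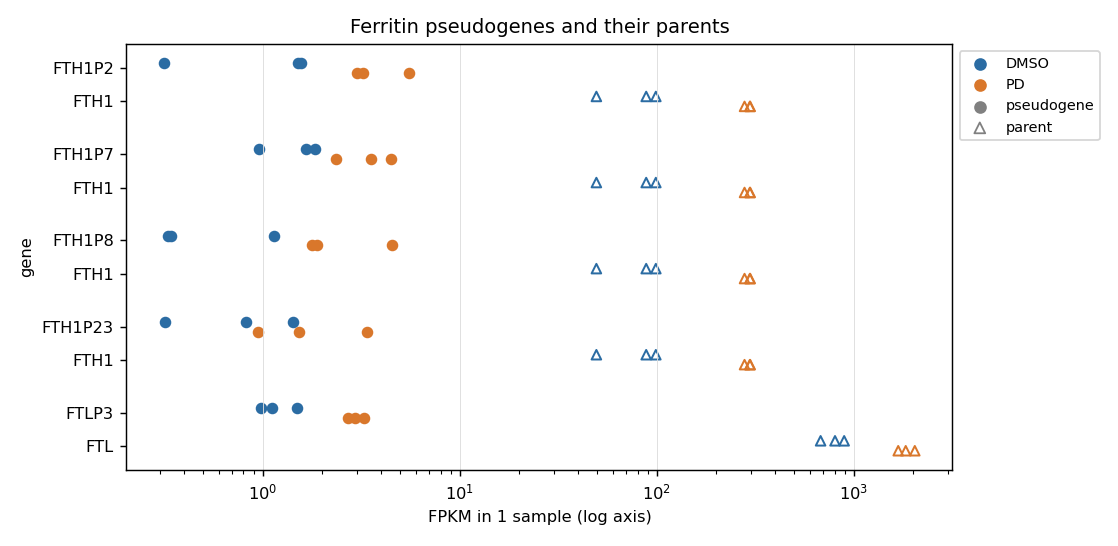
FPKM of the 5 ferritin pseudogenes (filled circles) and of FTH1 or FTL (open triangles) in each DMSO (blue) and PD (orange) sample, on a log axis. PD samples lie to the right of DMSO samples for FTH1P2, FTH1P7, FTH1P8 and FTLP3 and for both parents, and the groups of FTH1P23 overlap.

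The counts in the other families are to be read against 14.3% and 12.7% of all genes tested. Of 85 copies of genes in no listed family, 10 rose and 8 fell. Of 22 copies of RNA-binding protein genes 1 rose and 1 fell. SNRPGP14, a copy of a spliceosomal protein gene, rose from 0.523 to 2.00 FPKM (adjusted p = 0.0219), on a mean of 4.33 reads per sample. Its DMSO mean lay below the minimum of 1 FPKM, so it entered the set at least in part through its PD values. LSM12P1, identical over its length to LSM12, fell by 0.39 on the log2 scale (adjusted p = 0.0364), a call that was lost when any of 5 samples was left out (0.0655, 0.0609 and 0.121 without DMSO replicates 1 to 3, 0.1065 and 0.0815 without PD replicates 1 and 3). SNRPGP15, SNRPGP4 and HNRNPCP2 did not pass it. Of 20 copies of chromatin protein genes 1 rose and 1 fell, both copies of HMGB3: HMGB3P7, which reached the minimum in PD samples only, and HMGB3P18. NPM1P27 and H3F3AP6 were not past the test.

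Of 12 cytoskeletal copies 2 rose. KRT8P46, a copy of a keratin gene whose parent KRT8 stayed at or below 0.428 FPKM, had 3.20, 3.29 and 3.46 FPKM in DMSO and 5.57, 7.12 and 5.10 FPKM in PD (adjusted p = 0.00788), and its same-strand host MANBA rose by 0.38 (adjusted p = 0.0251). ACTG1P20 rose by 0.51 (adjusted p = 0.0408) beside 1.41 for gamma actin, and lost the call at 0.0626, 0.0953, 0.118, 0.0732 and 0.0628 without DMSO replicates 1 to 3, PD replicate 1 and PD replicate 3. PFN1P6 missed the threshold at 0.0574. Of 12 GTPase and signalling copies 1 fell, RAP1BP1, and RHOT1P1, PPP1R14BP3 and RAC1P2 did not pass. RHOT1P1, with 49.8, 66.6 and 60.5 FPKM in DMSO and 35.8, 50.8 and 38.1 FPKM in PD, had an adjusted p of 0.056. Of 11 chaperone copies HSPA8P15 rose, by 0.65 beside 1.66 for the heat shock protein gene HSPA8, and PPIAP53, which reached the minimum in DMSO samples only, differed by -0.86, beside a change of 0.02 for the cyclophilin gene PPIA. The others included PPIAP22, PPIAP29, PTGES3P1 and HSPD1P1. The 1 added to FPKM shrinks the changes of ACTG1P20 and HSPA8P15 more than those of their parents. Neither the 14 mitochondrial copies, with COX6A1P2, GCSHP5, VDAC1P1 and COX20P1 as the highest, nor the 10 ubiquitin and proteasome copies, with UBE2FP3, UBE2SP1, PSMC1P1 and UBE2FP1 as the highest, had a member past the test.

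Pseudogene and parent could be compared in 291 pairs with 207 tested parents. In 11 pairs both rose: the ferritin copies FTH1P2, FTH1P7, FTH1P8 and FTLP3, the translation factor copies EEF1A1P5, EEF1A1P6, EIF4A1P10 and EIF4BP6, and ACTG1P20, HSPA8P15 and NAMPTP1. In 2 both fell, HMGB3P18 among them. In 3 pairs the pseudogene rose and the parent fell, and in 2 the reverse was found. Only the pseudogene passed in 27, only the parent in 33, and neither in 213. The pseudogene thus passed in 45 of the 291 pairs and the parent in 51, where 14.3% of all genes tested rose and 12.7% fell. The rises of FTH1P2, FTH1P8 and FTLP3 were partly fixed by the choice of members, as described above. Whether more pairs agreed than these shares would give was not tested. Across all pairs the Spearman correlation of the log2 changes was 0.23 and the Pearson correlation 0.23. These are descriptions: the points share samples, parents and, in part, reads.

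The correlation varied with the share of a copy's windows found exactly in a transcript of any other gene, whether the parent or not. It was 0.02 over the 152 pairs with no shared exact window, 0.48 over 61 pairs with under 20% of windows shared, and 0.59 over 78 pairs with 20% or more. Identity to the parent was 91.7%, 98.1% and 99.5% at the median in these groups, and reads were 19.3, 30.5 and 63.8, so sequence likeness and depth varied together. With at least 30 reads, it was -0.05 over 48 pairs without a shared window and 0.65 over 87 pairs with one. Below 30 reads it was 0.05 over 104 and 0.35 over 52. Whether these correlations differ was not tested.

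The log2 ratio of pseudogene to parent changed with an unadjusted 95% interval off 0 in 54 of 291 pairs, or 18.6%, with 24 above and 30 below. Of these, 45 were among the 152 pairs without a shared window and 9 among the 139 with one. Median reads of the copies were 19.3 and 45.3 in those groups, and 30 of the 45 and 5 of the 9 had under 30 reads. The 1 added to FPKM moves the ratio of a low copy even where copy and parent change alike. Sequence, depth and level were not separated here. The median change of the ratio was -0.02, with a median SE of 0.24 for a pair. Among 177 clone-named pseudogenes with a parent found by sequence, the Spearman correlation was 0.20. Both passed the test in the same direction in 4 of those, with ITGB1, ESF1 and TAF4B among the parents, and in opposite directions in 2, with TTK and PATL1.

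**Figure D4:**
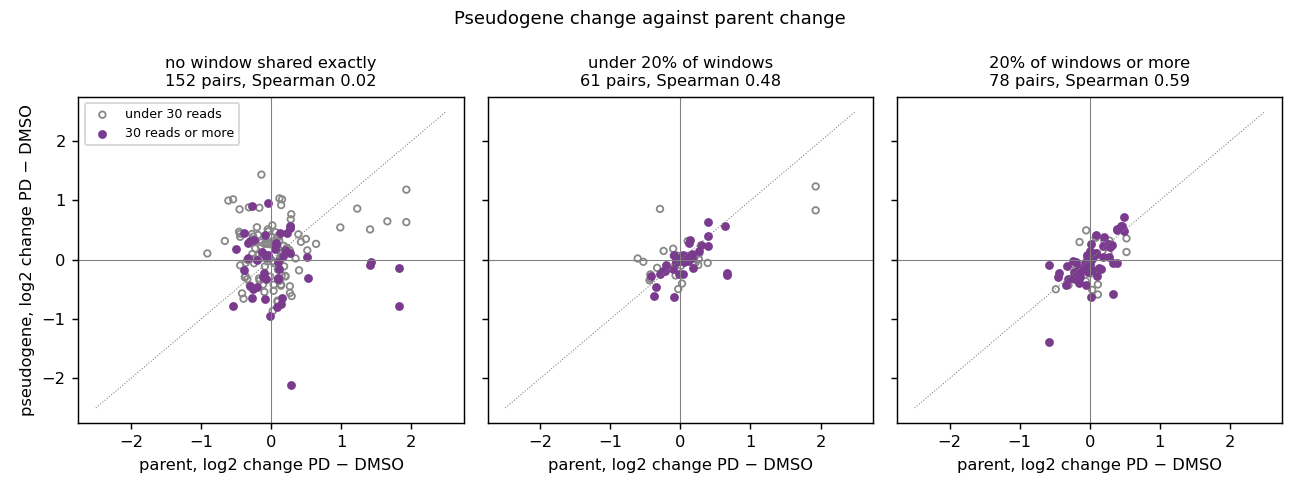
Log2 change of the pseudogene against that of its parent, PD minus DMSO, in 3 panels by the share of the pseudogene's 150-base windows found exactly in another transcript; open grey points have a mean under 30 reads, filled points 30 or more, and the dotted line marks equal change. Points scatter without order in the left panel (Spearman 0.02) and follow the dotted line more closely in the right one (0.59).

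All 5 pairs in which pseudogene and parent passed the test in opposite directions can be named. In HMGB3P7 and CNN2P1 the copy reached the minimum in PD samples only, so the choice of members fixed its direction and these pairs support nothing. KLF2P1, 74.6% identical to KLF2, had 8.31, 9.85 and 9.19 FPKM in DMSO and 4.44, 6.50 and 4.03 FPKM in PD, a change of -0.78 ± 0.16 (SE, adjusted p = 0.0118). KLF2, a transcription factor of vessel and immune cells, had 4.94, 9.82 and 10.5 FPKM in DMSO and 31.1, 31.3 and 30.9 FPKM in PD, a rise of 1.83 (adjusted p = 0.0022). The log2 ratio of copy to parent changed by -2.61 (95% interval -3.19 to -2.02). KLF2P1 lies within an intron of FAR2P1 on the opposite strand, which fell by 0.62 (adjusted p = 0.0324).

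RPL12P37, 91.4% identical to RPL12, had 1.05, 1.42 and 1.37 FPKM in DMSO and 3.81, 4.47 and 2.56 FPKM in PD, a rise of 1.00 (adjusted p = 0.0067). RPL12 had 137, 168 and 181 FPKM in DMSO and 112, 98.2 and 106 FPKM in PD, a fall of 0.61 on the log2 scale (adjusted p = 0.0116, and 0.0515 without PD replicate 2). It was the only ribosomal protein parent assigned by name that passed the test; RPS25, a parent found by sequence, rose by 0.69 (adjusted p = 0.0365). HMGB3P7 differed by 1.02 on 2.33 and 13.7 reads, while HMGB3 fell from 23.5 to 15.8 FPKM.

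CNN2P1, in an intron of HORMAD2-AS1, had 0.523 FPKM in DMSO and 1.74 FPKM in PD on average, and CNN2, the gene of the actin-binding protein calponin 2, fell from 20.5 to 14.7 FPKM (adjusted p = 0.0433). LRRFIP1P1 fell from 3.79 to 2.21 FPKM (adjusted p = 0.0126), and LRRFIP1, a nucleic acid sensor gene, rose from 7.49 to 9.64 FPKM (adjusted p = 0.0339). LRRFIP1P1 shares exonic sequence on the same strand with KCNMB3, a potassium channel subunit gene at 1.28 and 0.835 FPKM. The calls of both parents were lost when a sample was left out: CNN2 had 0.13, 0.135, 0.0501, 0.136 and 0.0969, and LRRFIP1 0.117, 0.12, 0.0611, 0.104 and 0.0735, without DMSO replicates 2 and 3 and PD replicates 1 to 3.

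**Figure D5:**
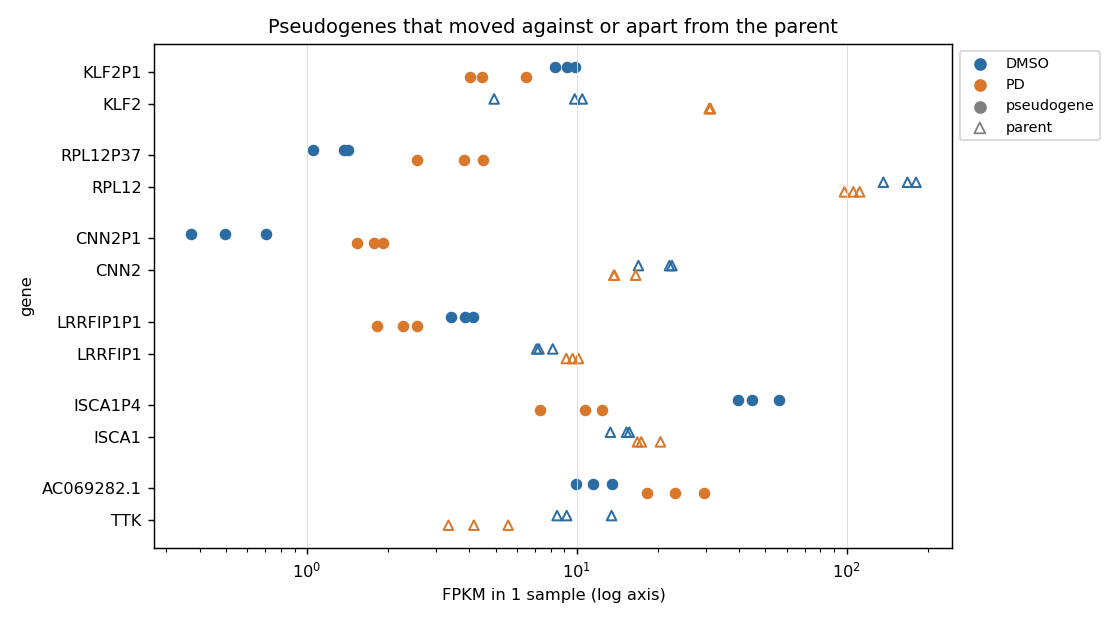
FPKM in each DMSO (blue) and PD (orange) sample, on a log axis, of 6 pseudogenes (filled circles) and their parents (open triangles) whose changes ran against or apart from each other. PD samples lie left of DMSO samples for KLF2P1, LRRFIP1P1 and ISCA1P4 and right of them for RPL12P37, CNN2P1 and AC069282.1, and the parents lie the other way.

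Many pseudogenes lay inside other genes. Of the 550, 131 overlapped a gene on the same strand, 13 of them in its exons, and 222 overlapped one on the opposite strand, 33 in its exons; 222 overlapped none. For 91 with a tested same-strand gene, the Spearman correlation between the changes of pseudogene and host was 0.36. Both passed the test in the same direction in 7 and in opposite directions in 1. Of these 91 pseudogenes, 10 rose and 3 fell, where 14.3% of all genes tested rose and 12.7% fell. For 146 with a tested gene on the opposite strand the correlation was 0.37, with 8 in the same direction and 0 in opposite directions. Whether more pseudogenes and hosts agreed in direction than such shares would give was not tested. CTBP2P8, in an intron of WLS, fell by 0.66 and WLS by 0.61 on the log2 scale, an example chosen after its values were seen. The 1 pair in opposite directions was CHMP4BP1, which reached the minimum in PD samples only (0.263 and 1.53 FPKM), and its host FBXO34, which fell by 0.40 on the log2 scale. No source used here says whether counting used the strand, so that reads of a pseudogene and of its host intron cannot be told apart. Of the 222 without any overlap, 25 rose and 20 fell, or 11.3% and 9.01%, beside 14.3% and 12.7% of all genes tested.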

How the data were processed

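Per the labels' protocols, stranded mRNA libraries from AZ-521 cells were sequenced as pairs. The authors deposited FPKM values with gene lengths, which equal the merged exon length of GENCODE release 29 for 58724 of 58735 genes. The submitters' processing notes name GRCm38 and mm10, but all identifiers are human (GRCh38). The aligner, the counter and the treatment of multiply placed reads are not stated in any source used here. FPKM times length was a whole multiple of 1 step per sample for 100% of values (tolerance 0.01), which gave reads per gene. The library size implied by the steps was 1.03, 1.10 and 1.08 times the reads over genes in DMSO replicates 1 to 3. In PD replicates 1 to 3 it was 1.00, 0.997 and 0.947 times. The deposited scale is therefore not the same multiple of these reads in both groups, and how it was set was not examined. Columns were matched by group prefix and title number, and 27 names turned into dates were restored.

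log2(FPKM + 1) was compared with limma 3.58.1 (R 4.3.3, trend, two-sided) over 13579 genes at 1 FPKM or more in 3 samples, without a covariate. The pseudocount understates low genes' changes. Ratios of pseudogene to parent were fitted likewise. Sequences were compared with blastn 2.17.0. Exact windows were counted over all transcripts of other genes, overlapping ones included.

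Named are the 12 largest rises and falls with 30 reads in the higher group and separate replicates, the 10 highest, the 4 highest per family of 5 or more, pairs past the test in opposite directions, and their parents and hosts. 1 of these falls is not reported here. Others are examples of a count. Members, families and lists were chosen with earlier results of these data known, and 2 family patterns were corrected after their matches were seen. Pseudocount, filter, scaling, variance model, samples and pairing rules were varied.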

Additional observations from a re-analysis of the deposited data

How the results depend on the processing

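The number of pseudogenes past the test (92, with 55 rising and 37 falling) was 47 (34 and 13) with no filter on low values, 33 (16 and 17) at a mean of at least 5 FPKM, 61 (35 rising) at 1 FPKM in all 6 samples, 176 (102 and 74) with array weights and 38 (20 and 18, chosen after seeing the data) among members with at least 30 reads. With equal totals 57 fell. Leaving out 1 sample gave 60 to 98, with 36 to 61 rising and 20 to 37 falling. Genes past the test (3678) numbered 2214 at a mean of at least 5 FPKM, 6301 with array weights, and 2003 to 3534 without 1 sample. Without both DMSO replicate 1 and PD replicate 3, 117 pseudogenes (71 and 46) and 4558 genes passed. The replicate block gave 60 pseudogenes (19 falling) and 1844 genes; same-numbered samples deviated with correlations of -0.39, 0.17 and -0.16, so the numbers were not taken to pair samples.

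The Spearman correlation of 0.23 was 0.19 and 0.28 with pseudocounts of 0.1 and 5, 0.57 at a mean of at least 5 FPKM, 0.33 at 1 FPKM in all 6, 0.18 with voom on recovered reads, 0.36 with 30 reads, 0.18 with 1 point per parent, and 0.20 to 0.24 without 1 sample; 0.0203 and 0.551 without and with a shared window were chosen after seeing the data. The median ratio change of -0.02 was 0.0237 with equal totals and 0.0803 with quantile normalization. EEF1A1 reversed to -0.16 with quantile normalization. Over 1970 refits of 112 named genes, 110 lost and 56 gained the threshold; 85 sign changes concerned genes past it in neither fit. Low read numbers limit most members.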
